A study of Bos taurus with 4 samples.

Results

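HMGCS1, ACAT1, ACAT2, BDH1, BDH2, OXCT1 and ACSS2, 7 genes of ketone body metabolism and of the entry to the mevalonate pathway, were followed through the ATAC-seq peak lists of bovine rumen epithelial primary cells. ATAC-seq marks open chromatin as the places where a transposase can insert sequencing adapters. The genes were taken by name, and every listed peak interval whose annotation named 1 of them was kept. That gave 108 of 362102 intervals, which merged into 35 of 115970 regions and covered 7 of 24886 gene names. A region was called a promoter where the summit of a listed interval lay within 1000 bp of the annotated gene start, and distal otherwise. By this rule each gene had 1 promoter region, and the other 28 regions were distal.

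The cells came from 1 Holstein bull calf aged 2 weeks that had been fed milk replacer only, and the study compared untreated cells with cells given 5 mM butyrate for 24 h. There were 4 libraries, 2 in each group. The labels conflict on which pair received butyrate. In the descriptions of the samples and in the deposited values the first pair is Control and the second BT. In the titles and in the treatment field it is the first pair that was given butyrate. The names Control-named and BT-named follow the deposited values, and every direction below is BT-named relative to Control-named. Under the other reading each direction would be the opposite. The study reports that ATAC peaks covered less of the genome after butyrate, and the BT-named lists held fewer intervals. Its text does not say which libraries it took as treated, so the conflict remains. The supplement of the study speaks of biological replicates, but no source used here says that the libraries of a group came from separate cultures, so p-values measure only the spread between these libraries, and with cells of a single calf nothing can be said of other animals.

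The rumen wall takes up butyrate made by microbes and oxidizes much of it to ketone bodies, above all beta-hydroxybutyrate. In mitochondria, acetyl-CoA units are joined to acetoacetyl-CoA, turned into HMG-CoA and cleaved to acetoacetate, which beta-hydroxybutyrate dehydrogenase reduces. The same joining steps in the cytosol feed HMG-CoA into the mevalonate pathway, from which sterols are made.

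The lists held 94941 and 98962 intervals in the Control-named and 83391 and 84808 in the BT-named libraries. The signal at the summit, or peak value, started at 21 or 22 in each library, so a region can carry signal and still be absent from a library's list. Read totals were not used here. Of all regions 56.8% were listed in all 4 libraries, 65892 in number, and these were compared with limma on log2(average value + 1), where the average value is the mean signal over a library's own interval. The median log2 fold change of these regions was -0.24 as deposited, 0.13 after median centring and 0.05 after quantile normalization. Because the scaling moved this balance, a region is said to have risen or fallen in signal (or to be higher, lower or called), where no single scaling is named, only where limma gave an adjusted p under 0.05, with 1 sign, under each of 3 scalings. In cells assayed together, fewer cells with a region open cannot be told apart from less opening per cell.

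The epithelial label was checked against marker promoters. Of 12 epithelial markers 7 had a promoter region in all 4 libraries, while CDH1, TP63, GRHL2 and OVOL1 had none within 1000 bp. Summed over the listed promoters, 7 in each Control-named and 8 in each BT-named library, the average value was 629.6 and 746.2 in the former and 866.2 and 929.9 in the latter. Over the 7 listed in all 4 libraries the sums of the latter were 749.0 and 774.1, and the median log2 fold change was -0.27. KRT14 and KRT18 rose, KRT15 fell, KRT5 and EPCAM passed in the downward direction as deposited only, KRT8 in the upward direction after both other scalings only, and the promoter of KRT19 was listed in the BT-named libraries only. Of 10 fibroblast markers 4 had a promoter in all 4 libraries, and the sums over the 5 or 6 listed were 585.3, 717.5, 537.8 and 596.1 in the order Control-named 1 and 2, BT-named 1 and 2. Among them VIM fell, and DCN was listed in the Control-named libraries only. COL1A1 was listed in Control-named 2 (average value 107.55) and in both BT-named libraries (116.85 and 144.69). THY1 passed in the upward direction after median centring only (log2 fold change 0.58, limma adjusted p = 0.00913). COL1A2 and TWIST2 passed under no scaling. Of 8 immune markers 3 were listed in all 4 libraries (sums from 141.3 to 210.8), and PTPRC, CD3E, CD14 and CSF1R had no promoter region. Of 6 endothelial markers 1 was, CLDN5 was listed in the Control-named libraries only, and PECAM1, CDH5, VWF and TEK had none (sums of 64.82 and 64.42 against 33.91 and 29.77). The part of these marker differences in the values of the 7 genes was not tested.

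All 7 promoters were open in every library, and none of them was called between the groups. With the highest interval of a library kept, the average values of the groups overlapped at each promoter. With limma on the values as deposited, 0 of 7 promoters passed an adjusted p of 0.05, against 20.5% of the 12871 gene promoters called lower as deposited. At an unadjusted p of 0.05 (limma) 0 of 7 passed (lowest 0.174), beside 25% of gene promoters downward and 5.37% upward. Without Control-named 1, 2 promoters (HMGCS1 and ACSS2) passed in the downward direction as deposited, beside 27.7% of all gene promoters in that setting. After median centring 4 promoters (HMGCS1, ACAT2, BDH1 and OXCT1) passed in the upward direction, beside 42.8% of all gene promoters. After quantile normalization 3 (ACAT2, BDH1 and OXCT1) did so, beside 31.3% of all. Under all 3 scalings together 0 of 7 were called, where 4.06% of gene promoters were higher and 4.72% lower. The median log2 fold change of the 7 was -0.10, 0.26 and 0.28 under the values as deposited, median centring and quantile normalization, close to -0.12, 0.25 and 0.18 over all gene promoters.

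**Figure D1:**
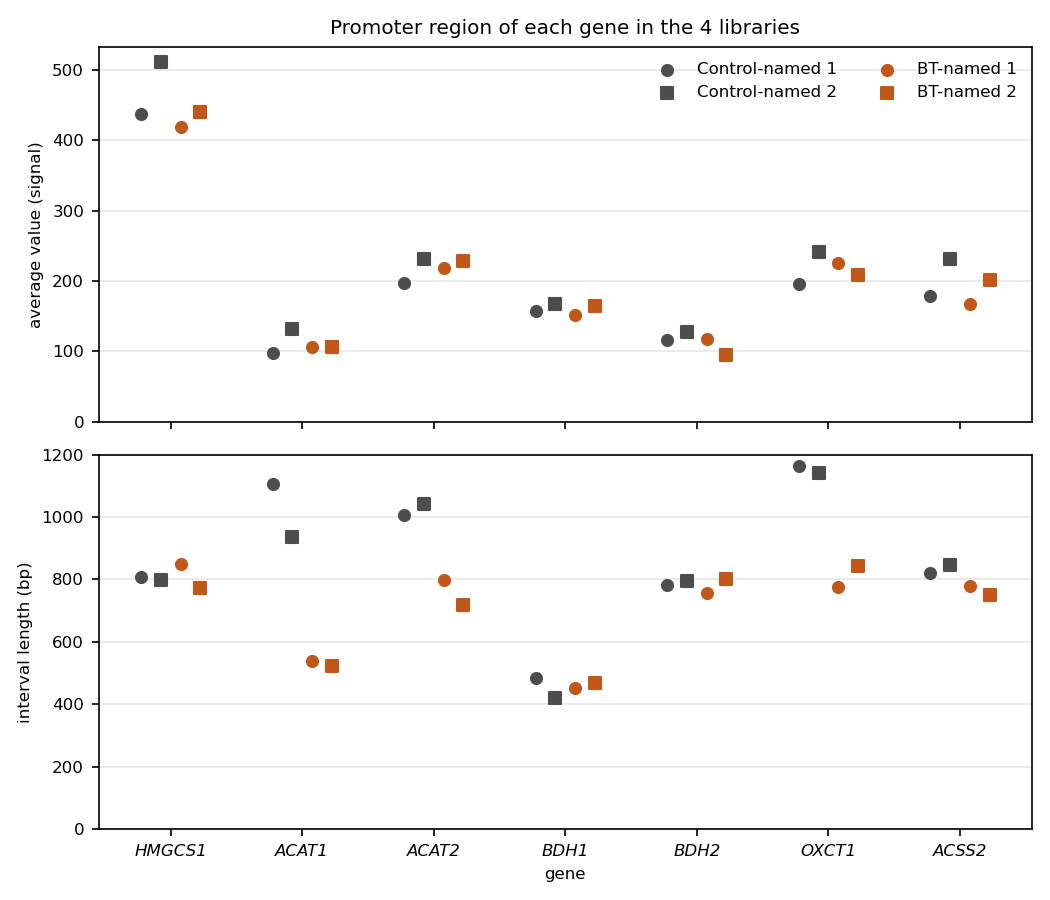
Average value (signal, top) and interval length (bp, bottom) of the promoter region of each gene, 1 point per library, with Control-named libraries in grey and BT-named in orange. The averages of the groups, with the highest interval of a library kept, overlap for every gene. HMGCS1, between 419 and 512, is far above the rest. The intervals of ACAT1, ACAT2, OXCT1 and ACSS2 are shorter in each BT-named library.

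By average value the promoters stood in an order that was led by HMGCS1 in every library. HMGCS1 lay between the 98.3 and 99.2 percentile of gene promoters. ACAT2 (71.8 to 79.6), OXCT1 (71.4 to 79.9) and ACSS2 (63.2 to 74.9) followed with ranges that overlapped one another. BDH1 (54.2 to 61.0) came below them in percentile, and ACAT1 (29.6 to 39.2) and BDH2 (30.8 to 42.8) came last and overlapped each other. An annotated CpG island lay in 6 of the 7 promoters, all but that of BDH2.

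ACAT1, the mitochondrial thiolase that joins acetyl-CoA units in ketogenesis and splits acetoacetyl-CoA in ketone body use, starts at position 17999932 of chromosome 15 (plus strand, build UMD3.1, as the deposited distances place it). Its promoter region ran from 17999667 to 18000801. The average values were 98.1 and 131 in the Control-named and 106 and 106 in the BT-named libraries. The value of 131 is the higher of 2 intervals listed in Control-named 2. With it the BT-named values lay between the Control-named ones, and the log2 fold change was -0.10 ± 0.16 (SE; limma adjusted p = 0.664). With the mean of the intervals taken instead, the log2 fold change was 0.15 ± 0.16 (limma adjusted p = 0.485). The covered length was 1107 and 935 bp in the Control-named against 537 and 524 bp in the BT-named libraries, and in Control-named 2 it was split into 2 intervals. Peak values were 203 and 219 against 176 and 171. Length and peak value therefore separated the groups where the average value, as taken here, did not.

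The only other region of ACAT1 lay at -5660 bp (negative distances are upstream of the start), from 17993986 to 17994604, past the end of CUL5. Its average values were 265 and 247 in the Control-named and 174 and 168 in the BT-named libraries. Both BT-named values were below both Control-named ones. The log2 fold change was -0.58 ± 0.13 as deposited (limma adjusted p = 9.28e-05), -0.22 after median centring (adjusted p = 0.103) and -0.28 after quantile normalization (adjusted p = 0.04), so that it was not called under all 3 scalings. At this site the average value in each of the 4 libraries exceeded that of the promoter itself.

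ACAT2, the cytosolic thiolase that supplies acetoacetyl-CoA for sterol synthesis, starts at 97466440 on chromosome 9 (plus strand). The average values of its promoter, which ran from 97465908 to 97466949, were 198 and 231 in the Control-named and 219 and 228 in the BT-named libraries. They overlapped, with a log2 fold change of 0.06 ± 0.13 (limma adjusted p = 0.737) as deposited, 0.42 (adjusted p = 0.00176) after median centring and 0.35 (adjusted p = 0.00917) after quantile normalization. The peak value at the same promoter pointed the other way, with 464 and 547 against 436 and 405, and the interval was 1006 and 1042 bp long against 797 and 719 bp. The second ACAT2 region, at 16472 bp and inside the neighbouring TCP1, appeared in both Control-named lists and in neither BT-named list, at low peak values of 38 and 34.

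Shorter intervals in the BT-named libraries were common among all gene promoters. The intervals of 4 of the 7 promoters (ACAT1, ACAT2, OXCT1 and ACSS2) were shorter in both BT-named than in both Control-named libraries, as were those of 55.4% of all gene promoters. The peak values of 3 (HMGCS1, ACAT1 and ACAT2) were below in the same sense, beside 45.9% of all. By average value, with the highest interval of a library kept, 0 of the 7 were below, beside 43.2% of all. In the upward sense it was 0 of the 7, beside 12.7%.

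HMGCS1, the cytosolic HMG-CoA synthase that commits acetoacetyl-CoA to the mevalonate pathway and a classical target of the sterol regulator SREBP2, starts at 31451294 on chromosome 20 (plus strand). Its promoter ran from 31450761 to 31451629. The average values were 437 and 512 in the Control-named and 419 and 440.0 in the BT-named libraries. BT-named 2 lay just above Control-named 1, so that the groups overlapped. The log2 fold change was -0.14 ± 0.10 (limma adjusted p = 0.271) as deposited, 0.22 (adjusted p = 0.0192) after median centring and -0.00 (adjusted p = 0.992) after quantile normalization. Without Control-named 1 the deposited value passed the threshold at -0.25 (limma adjusted p = 0.0161). Peak values were 750.0 and 945 against 734 and 729.

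A weak region inside HMGCS1, at 7586 bp (31458695 to 31459083), rose 1.62-fold in average value. Its average values were 29.4 and 32.3 in the Control-named and 43.1 and 57.1 in the BT-named libraries, and its peak values 40 and 41 against 64 and 91. All values of the BT-named libraries were above those of the Control-named ones, and the BT-named values differed more between themselves than the Control-named ones. The log2 fold change was 0.67 ± 0.20 as deposited (limma adjusted p = 0.00243), 1.03 after median centring and 0.86 after quantile normalization. Without BT-named 2, the stronger of that pair, it was 0.47 as deposited and no longer passed (limma adjusted p = 0.121).

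The remaining HMGCS1 regions were not called. At 30594 bp, past the gene and towards NIM1K, the average values were 80.3 and 89.3 in the Control-named and 69.7 and 66.9 in the BT-named libraries, with a log2 fold change of -0.31 ± 0.18 (limma adjusted p = 0.148). A region at -6846 bp was listed in the Control-named libraries only (peak values 73 and 77). The nearest BT-named intervals of the gene were 6119 and 6147 bp away. A region at 32578 bp was listed in Control-named 1 alone, with a peak value of 74.

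BDH1, the mitochondrial beta-hydroxybutyrate dehydrogenase that interconverts acetoacetate and beta-hydroxybutyrate, starts at 72608859 on chromosome 1 and is the only gene of the 7 on the minus strand. It had 8 regions, of which 6 were listed in all 4 libraries. The promoter (72608620 to 72609103) had average values of 158 and 167 in the Control-named and 152 and 164 in the BT-named libraries. These overlapped closely, and the log2 fold change of -0.04 ± 0.14 (limma adjusted p = 0.853) became 0.32 (adjusted p = 0.0279) after median centring and 0.31 (adjusted p = 0.036) after quantile normalization. A stronger region, also annotated with a CpG island, followed at 1147 bp, just outside the promoter window. Its average values were 219 and 261 against 202 and 223, with a log2 fold change of -0.17 ± 0.13 and a limma adjusted p of 0.296. Without Control-named 1 the log2 fold change of this region was -0.29.

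The distal regions of BDH1 differed in sign along the gene. At 29179 bp, inside the gene (72579432 to 72579879), the average values were 38.4 and 47.3 in the Control-named and 61.8 and 62.1 in the BT-named libraries. This region rose 1.44-fold, with a log2 fold change of 0.53 ± 0.19 (limma adjusted p = 0.0181), 0.89 and 0.80 under the values as deposited, median centring and quantile normalization. The call as deposited was lost without Control-named 1 (0.38, limma adjusted p = 0.163), without BT-named 1 (0.53, adjusted p = 0.0929) and without BT-named 2 (0.52, adjusted p = 0.0983).

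At 36923 bp in the gene the average values were 61.9 and 67.5 against 73.5 and 83.9, and at 44443 bp, past its end, 82.1 and 79.4 against 94.4 and 105. Both BT-named values were above both Control-named ones at each site. The log2 fold changes of 0.28 ± 0.18 (limma adjusted p = 0.205) and 0.30 ± 0.17 (adjusted p = 0.14) did not pass as deposited, while after median centring they were 0.64 (adjusted p = 0.00184) and 0.66 (adjusted p = 0.000728).

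Nearer the start, at 21707 bp (72586824 to 72587432), the order was the opposite. The average values of 54.5 and 49.8 in the Control-named stood above 30.8 and 29.2 in the BT-named libraries, a log2 fold change of -0.78 ± 0.19 (limma adjusted p = 0.000376). It kept its sign at -0.42 after median centring (adjusted p = 0.0594) and -0.60 after quantile normalization (adjusted p = 0.00995), and so missed the threshold under 1 of the 3 scalings. A separate weak region at 21115 bp was listed in 3 libraries, with peak values of 39 in Control-named 1 and 38 and 49 in the BT-named libraries. A region at -8805 bp was listed in 1 library of each group, with peak values of 38 and 33.

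BDH2, a cytosolic dehydrogenase also credited with acting on beta-hydroxybutyrate in human cells, starts at 23046993 on chromosome 6 (plus strand). The average values of its promoter (23046391 to 23047198) were 116 and 128 in the Control-named and 117 and 95.2 in the BT-named libraries. BT-named 1 lay between the Control-named values and BT-named 2 below them, with a log2 fold change of -0.20 ± 0.16 (limma adjusted p = 0.319) as deposited, where it was the furthest from 0 of the 7 promoters. After median centring, at 0.16, it was the nearest to 0. Over the 4 libraries, the gene promoters with the nearest log2 average values were those of KIAA2013 (Euclidean distance 0.0742), LOC101906531 (0.1) and NF1 (0.104).

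The lowest log2 fold change as deposited of the 20 regions listed in all 4 libraries was far from this promoter. At 41807 bp (23088511 to 23089028), in CD163L1 and at -7304 bp from SLC9B2, the average values were 124.5 and 94.2 in the Control-named and 61.1 and 63.6 in the BT-named libraries. The peak values of 217 and 170.0 against 91 and 96 were likewise separated. The region fell to 0.57 of the Control-named mean, with log2 fold changes of -0.79 ± 0.17 (limma adjusted p = 5.19e-05), -0.43 (adjusted p = 0.0343) and -0.43 (adjusted p = 0.0397) under the values as deposited, median centring and quantile normalization. After median centring it missed the threshold with a plain variance (adjusted p = 0.0625) and without Control-named 1 (-0.18, limma adjusted p = 0.525), BT-named 1 (-0.40, adjusted p = 0.0837) or BT-named 2 (-0.44, adjusted p = 0.0615). As the region lies within another gene and nearer a different start, its listing under BDH2 rests on distance alone.

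At 32687 bp, with a CpG island and also downstream of CD163L1, the average values were 169 and 202 against 125 and 145. The log2 fold change of -0.45 ± 0.15 (limma adjusted p = 0.00645) was -0.09 (adjusted p = 0.554) after median centring, and as deposited it did not pass without Control-named 2 (-0.32, adjusted p = 0.0873) or BT-named 1 (-0.35, adjusted p = 0.174). The region at 10191 bp in BDH2 was listed in Control-named 1 alone, with a peak value of 31.

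OXCT1, the mitochondrial transferase that activates acetoacetate and so opens the way to ketone body use, starts at 32683996 on chromosome 20 (plus strand), 1233 kb beyond HMGCS1. It had 9 regions, the most of the 7 genes, of which 3 were listed in all 4 libraries. The promoter (32683154 to 32684316) had average values of 196 and 242 in the Control-named and 225 and 209 in the BT-named libraries. Both BT-named values lay between the Control-named ones, with a log2 fold change of -0.01 ± 0.13 (limma adjusted p = 0.976) that was 0.35 (adjusted p = 0.00834) after median centring and 0.28 (adjusted p = 0.0359) after quantile normalization. Its intervals were 1163 and 1140 bp long in the Control-named against 777 and 844 bp in the BT-named libraries.

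Further regions flanked this promoter on either side. At -1628 bp a region was listed in the Control-named libraries only (peak values 153 and 171), the highest of any region confined to the lists of 1 group here. The nearest BT-named intervals of the gene were 955 and 858 bp away and were those of the promoter. At 1124 bp, over a CpG island in the gene, the average values were 124 and 122 in the Control-named and 86.1 and 72.0 in the BT-named libraries. The groups did not overlap, with a log2 fold change of -0.63 ± 0.17 (limma adjusted p = 0.000709) that was -0.27 (adjusted p = 0.128) after median centring and -0.26 (adjusted p = 0.165) after quantile normalization. Without BT-named 2 the deposited value was -0.51 (adjusted p = 0.0598).

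Deep in OXCT1, at 97124 bp (32780870 to 32781375), a region fell to 0.621 of the Control-named mean. Its average values were 196 and 188 in the Control-named and 114 and 125 in the BT-named libraries, and its peak values 330.0 and 326 against 192 and 209. All BT-named values were below all Control-named ones, by more than the gap within either pair. The log2 fold change was -0.68 ± 0.15 (limma adjusted p = 3.35e-05), -0.32 (adjusted p = 0.0346) and -0.33 (adjusted p = 0.0367) under the values as deposited, median centring and quantile normalization. After median centring it missed the threshold by peak value (adjusted p = 0.0614), with a plain variance (adjusted p = 0.0812), without Control-named 1 (-0.24, limma adjusted p = 0.218) and without BT-named 1 (-0.26, adjusted p = 0.155), and without BT-named 2 it missed it after quantile normalization (-0.38, adjusted p = 0.0523).

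Beside it, at 98468 bp, a region was listed in the Control-named libraries only (peak values 71 and 83), and a weaker one at 157636 bp was so too, with 33 and 38. The other OXCT1 regions lay in the gene at 42340 and 130564 bp, each listed in 1 library of each group, and at 136964 bp in BT-named 1 alone. None of these last 3 exceeded a peak value of 36.

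ACSS2, which makes acetyl-CoA from acetate in the cytosol and nucleus, starts at 64794700 on chromosome 13 (plus strand). The average values of its promoter (64794153 to 64794997) were 179 and 230.5 in the Control-named and 167 and 202 in the BT-named libraries. They overlapped, with a log2 fold change of -0.15 ± 0.14 (limma adjusted p = 0.404). The values within each pair lay further apart than the means of the groups. Without Control-named 1 the value was -0.33 (limma adjusted p = 0.0376).

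The upstream regions of ACSS2 lay in GGT7, a neighbour on the opposite strand, or upstream of its start. The one at -3340 bp, which was at -244 bp from the start of GGT7, had average values of 80.4 and 116 against 82.8 and 92.9, a log2 fold change of -0.14 ± 0.17 and a limma adjusted p of 0.537. The region at -6956 bp, within GGT7, was listed in the BT-named libraries only (peak values 73 and 74), and was the single region of the 35 with that pattern. A region at -1964 bp was listed in BT-named 2 alone, with a peak value of 106, and one at 36276 bp in Control-named 1 alone, with 32.

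**Figure D2:**
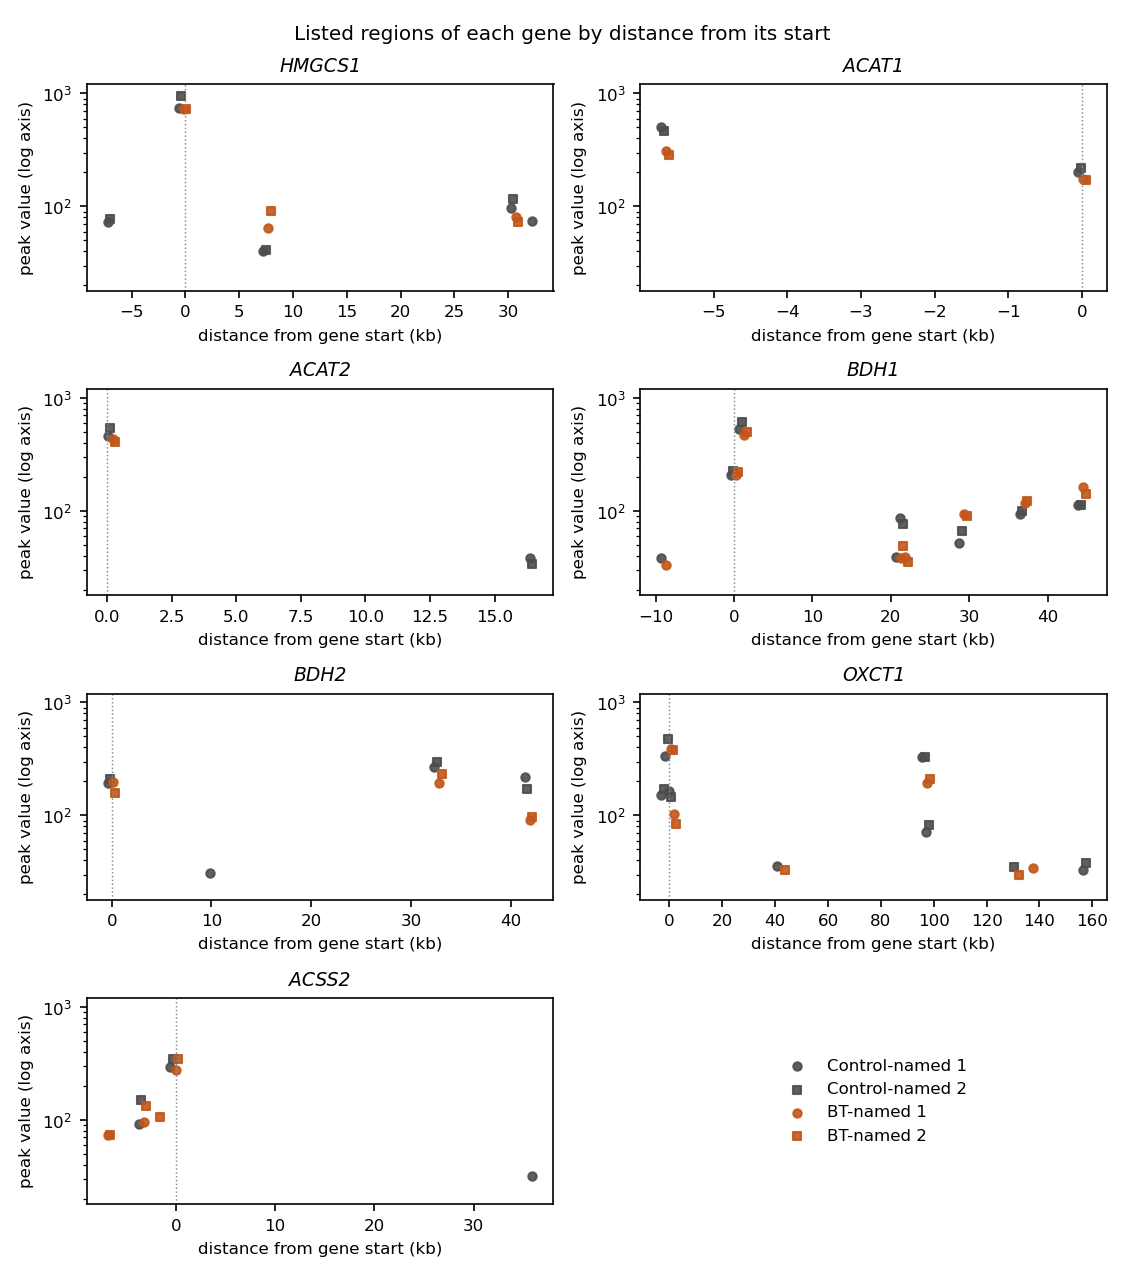
Peak value (signal, log axis) of every listed region against its distance from the gene start (kb, negative upstream), 1 panel per gene and 1 point per library that listed it. The points of a region are set slightly apart in the horizontal direction so that all can be seen. The promoter of HMGCS1 reaches 945, and the regions of OXCT1 at -1628 bp (153 and 171) and 98468 bp (71 and 83) have grey points only.

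Over the 7 genes, presence in the lists was less even among distal regions than at promoters. Of the 28 distal regions 13 were listed in all 4 libraries, 5 in both Control-named libraries only (HMGCS1, ACAT2 and 3 of OXCT1), 1 in both BT-named libraries only, 1 in 3 libraries, 3 in 1 library of each group and 5 in 1 library. The 5 of 35 regions found in both Control-named libraries only stood beside 13.1% of all regions, and the 1 found in both BT-named libraries only beside 4.51%. The libraries listed 31, 27, 25 and 25 intervals of the genes. The mean was 29.0 ± 2.83 (SD, n = 2) in the Control-named and 25 ± 0 (SD, n = 2) in the BT-named libraries. The difference of -4.0 had an exact permutation p of 0.33, two-sided, which is the smallest that 2 libraries against 2 allow. It was a change of -13.8%, beside -13.3% for all intervals.

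Of the 20 regions listed in all 4 libraries, 2 rose (in HMGCS1 and BDH1) and 2 fell (listed for BDH2 and OXCT1), and 16 were not called. Over all regions 6.89% were higher and 20.0% lower. Each of these 4 regions was distal. As deposited 6 of the 20 passed in the downward direction, beside 39.4% of all regions, and 2 in the upward direction, beside 6.9%. By average value BT-named was above Control-named without overlap in 4, below in 7 and overlapping in 9, where the shares over all such regions were 15.9% above and 54.4% below. The median log2 fold change of the 13 distal regions was -0.31 as deposited and 0.05 after either scaling, and that of all regions was -0.24, 0.13 and 0.05. The number called under all 3 scalings was smaller without Control-named 1, BT-named 1 or BT-named 2, and larger without Control-named 2. Such fits leave 1 library in a group, so these calls depend on single libraries.

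**Figure D3:**
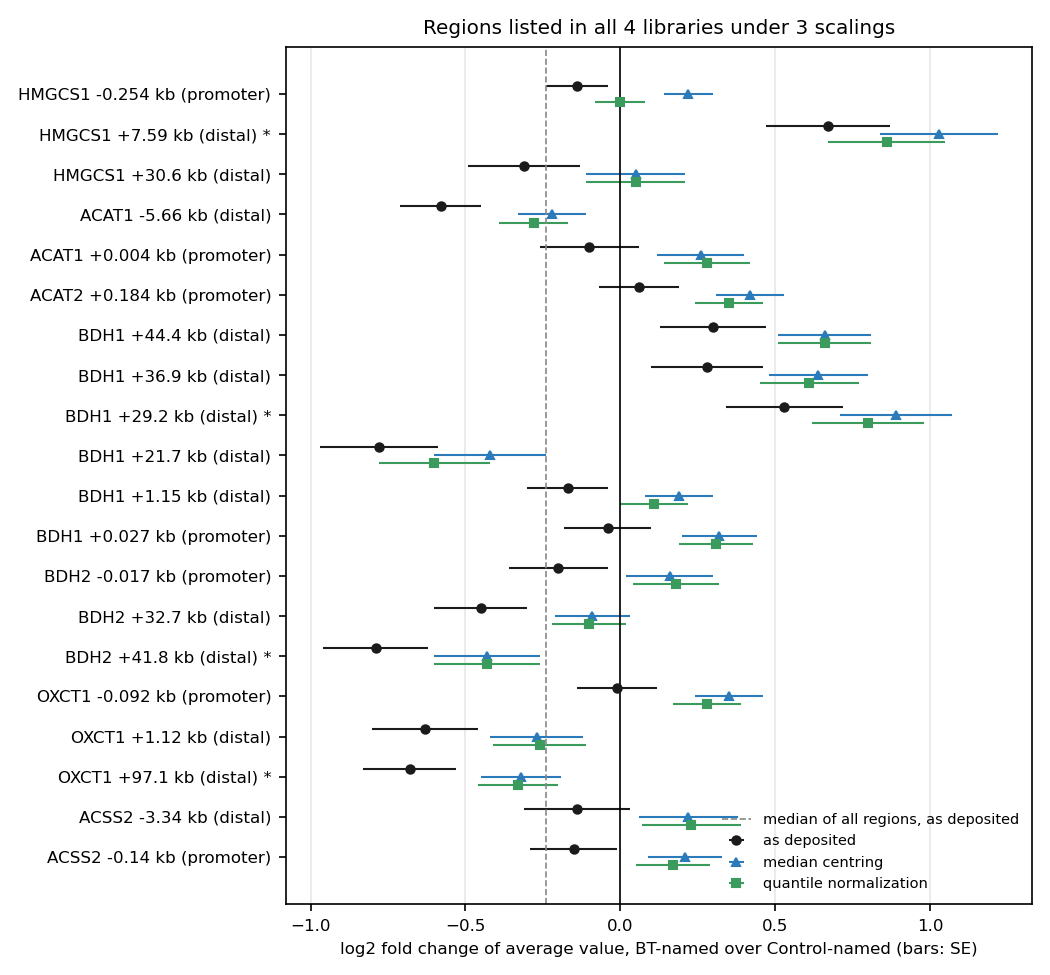
Log2 fold change of average value, BT-named over Control-named, with its SE, for the 20 regions listed in all 4 libraries under the values as deposited (black), median centring (blue) and quantile normalization (green). Asterisks mark the 4 regions that rose or fell under all 3 scalings, and the dashed line is the median of all regions as deposited (-0.24). Regions at promoters lie near 0 as deposited, between -0.20 and 0.06.

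The other genes of these pathways were read from lists of 44 genes, of which 34 had a promoter region in all 4 libraries. Of the 34 promoters 0 rose and 1 fell under all 3 scalings with limma, beside 4.06% higher and 4.72% lower among all gene promoters. At an unadjusted p of 0.05, as deposited, 0 passed in the upward and 6 in the downward direction, beside 5.37% and 25% of all gene promoters. At the adjusted threshold 3 passed as deposited, all downward, beside 20.5% of all, and this number was 10 without Control-named 1 and 1 without any other single library. The median log2 fold change was -0.10, and none of the promoters was listed in 1 group only. The promoter that fell was that of ACSM5, a mitochondrial medium-chain acyl-CoA synthetase. Its region, which also lies at PDILT, had average values of 171 and 181 in the Control-named and 91.3 and 83.9 in the BT-named libraries. It was without overlap, at a log2 fold change of -1.0 ± 0.16 for the deposited values (limma adjusted p = 1.53e-08) and -0.64 after median centring (adjusted p = 0.000332).

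By list, the mevalonate pathway had 13 of 14 promoters in all 4 libraries, with a median log2 fold change of -0.11 and a range of -0.31 to 0.06. As deposited 2 of them passed in the downward direction, beside 20.5% of all gene promoters, namely FDPS (-0.29 ± 0.10, limma adjusted p = 0.0163) and LSS (-0.31 ± 0.13, adjusted p = 0.0425), which make farnesyl diphosphate and lanosterol and were named after their values were seen, and after median centring 7 passed in the upward direction, beside 42.8% of all, and these did not. The sterol regulators had 7 of 8, with a median of -0.07, and the genes of acetyl-CoA supply and use 6 of 6, with a median of 0.02. The genes that oxidize butyrate to acetoacetyl-CoA had 6 of 9, with a median of -0.19. The list of ketone body metabolism had 3 of 8, with a median of -0.17. ACOT12, a cytosolic acetyl-CoA hydrolase, stands both in this list and in that of acetyl-CoA supply and use.

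No promoter region was listed for 10 of the 44 genes, among them HMGCLL1, OXCT2, ACSS1, ACSS3, ACSM1, ACSM3, HADHA, IDI2 and SREBF2. IDI2 was not named for any interval, so its promoter could not be read. The promoter region of HADHB, listed in all 4 libraries, was also annotated with HADHA, but outside the promoter window of that gene.

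**Figure D4:**
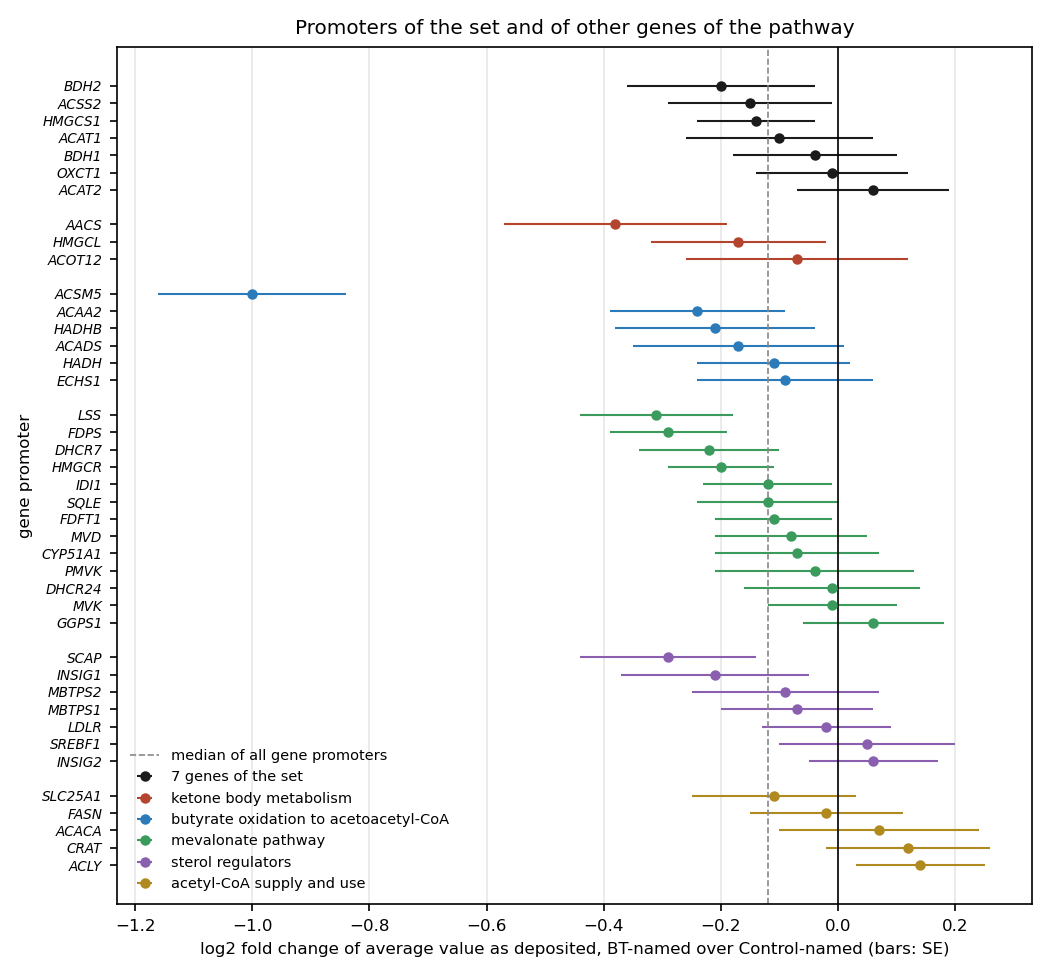
Log2 fold change of average value as deposited, BT-named over Control-named, with its SE, for the promoters of the 7 genes (black) and of the other pathway genes by list (colours). The dashed line is the median of all gene promoters (-0.12). ACSM5 at -1.0 stands apart, and the 7 genes lie between -0.20 and 0.06.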

How the data were processed

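ATAC-seq was done on rumen epithelial primary cells in 4 libraries. Per the labels and the study's methods, paired reads of 42 nt were aligned by the authors with BWA to UMD3.1 and called peaks with MACS2 in each library. Trim Galore 0.4.1 stands in the submitters' processing notes, and the methods do not name it for ATAC-seq. The deposited table gives each interval's signal at the summit (peak value) and mean signal over the interval (average value), with distances to genes. The scaling of this signal across libraries by the authors is not given in the sources at hand.

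Intervals that overlapped by at least 1 bp were merged, and of several intervals of a library within a region the highest value was kept. Regions listed in all 4 libraries were fitted with limma 3.58.1 (R 4.3.3; trended, robust variance, two-sided) on log2(average value + 1), with Benjamini-Hochberg adjustment over 65892 regions and calls at 0.05. All fold changes refer to this log2 scale. The fit was checked on simulated data. A gene was represented by its promoter region of highest mean value in the gene promoter counts, which cover 12871 genes. Values were also median centred and quantile normalized. Other alternatives were the peak value, a pseudocount of 10, a minimum mean peak value of 50, a listing threshold of 40, a plain variance, merging at larger overlap, the mean of several intervals, promoter windows of 500 and 2000 bp, a replicate block and leaving out each library. Per-library counts were compared by an exact permutation test.

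The members, gene lists, marker lists and the rule of 3 scalings were chosen with earlier results of these data known. All 7 genes were named with every region. Of the other pathway genes, those called under all 3 scalings, those with a promoter in 1 group only and those with no promoter region were to be named, and for the promoter with the largest change the 3 promoters with the nearest values. Gene names are as deposited, and all 7 matched a RefSeq symbol (ARS-UCD2.0, used for names only). Coordinates are UMD3.1, counted from 1. No sequence is shown, and exons and introns were not analysed here. The labels give no batch. Some genes of the lists are not reported here.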

Additional observations from a re-analysis of the deposited data

How the results depend on the processing

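As deposited 8 of the 20 regions of the 7 genes were called, and leaving out 1 library gave 5 to 10, and 0 to 6 in place of 4 under all 3 scalings. Of the 7 promoters 0 called became 4 with median centring, 3 with quantile normalization, 1 of 9 with a window of 2000 bp and 0 to 2 with 1 library left out. Of all gene promoters 3157 called became 6129 with median centring, 4767 with quantile normalization and 1746 to 4020 with 1 library left out. Of the pathway promoters 3 called became 16, 9 and 1 to 10 under those settings and 1 with a plain variance, and the 1 called under all 3 scalings became 0 with a window of 500 bp, under which 33 genes were counted. The cause of these shifts was not tested.

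Of 260 values of single regions under the alternatives, 27 changed sign, 22 of them without being called either time. After median centring these were the promoters of HMGCS1 (0.22), ACAT1 (0.26), BDH1 (0.32), BDH2 (0.16), OXCT1 (0.35) and ACSS2 (0.21) and the regions of HMGCS1 at 30594 bp (0.05), BDH1 at 1147 bp (0.19) and ACSS2 at -3340 bp (0.22). After quantile normalization they were the promoters of ACAT1 (0.28), BDH1 (0.31), BDH2 (0.18), OXCT1 (0.28) and ACSS2 (0.17) and the same 3 regions (0.05, 0.11 and 0.23). The promoter of ACAT1 gave 0.15 with the mean of several intervals, and that of ACAT2 -0.26 by peak value. With 1 library left out, values ran from -0.30 to 0.11 at the promoter of ACAT1, -0.05 to 0.17 at that of ACAT2, -0.10 to 0.02 at that of BDH1 (0.00 without Control-named 2), -0.16 to 0.14 at that of OXCT1 (0.05 without BT-named 2), -0.33 to 0.03 at that of ACSS2 and -0.40 to 0.12 at -3340 bp of ACSS2.

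Deviations from the group means of libraries with the same number correlated at 0.0292, so the numbers were not taken as pairs. A replicate block gave 8 called regions, 2 higher and 6 lower, beside 31323 of 65892 called over all regions, and 0 called promoters. With 2 libraries a group and a signal of unstated scaling, small shifts such as those at the promoters cannot be given a direction. Read depth per library was not used here, and the lowest listed peak value was 21 or 22.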

Other observations

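Regions away from promoters were also listed for 9 of the pathway genes with no promoter region. Leaving out those at the promoter of another gene of the lists, there were 28, of which 16 were in all 4 libraries. Of these 1 rose and 2 fell under all 3 scalings with limma, where 6.89% of all regions rose and 20.0% fell, so the counts do not stand above those of all regions. The 3 are named here after their values were seen. The region at 61628 bp in ACSM1, a mitochondrial acyl-CoA synthetase that activates butyrate, had peak values of 42 and 58 in the Control-named and 85 and 100 in the BT-named libraries, and its average value rose by 0.66 ± 0.20 on the log2 scale (limma adjusted p = 0.00308). In ACSS1, the mitochondrial counterpart of ACSS2, the region at 14536 bp had peak values of 118 and 149 against 46 and 64, with a log2 fold change of -1.0 ± 0.19 (limma adjusted p = 2.72e-06). Past HADHA, the alpha subunit of the mitochondrial trifunctional protein, the region at 42731 bp had peak values of 175 and 193 against 72 and 96, with a log2 fold change of -0.76 ± 0.17 (limma adjusted p = 8.22e-05).

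SREBF2, which encodes a sterol regulator of HMGCS1, had 3 regions in all 4 libraries, and none was called under all 3 scalings. At -2436 bp the peak values were 97 and 85 against 53 and 51, with a log2 fold change of -0.68 ± 0.19 (limma adjusted p = 0.00177) as deposited and an adjusted p of 0.136 after median centring. At -5316 bp they were 242 and 278 against 161 and 156, with -0.52 ± 0.16 (limma adjusted p = 0.00361) and 0.332 after median centring. At 42300 bp they were 87 and 111 against 84 and 76, with -0.23 ± 0.18 (limma adjusted p = 0.31). The BT-named peak values were below the Control-named ones at each of these 3 sites. The other regions of SREBF2 were listed in a single BT-named library each. They lay at 34236 bp (peak value 42 in BT-named 2) and 41244 bp (65 in BT-named 1). The share over all regions was taken by average value, a different measure, and not by peak value. By average value the same order held for 54.4% of all regions listed in all 4 libraries.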
